A study of Homo sapiens with 4 samples.

Results

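The ZNF genes are the largest named group of human genes for C2H2 zinc finger proteins, and 162 of them were measured well enough here to set RNA recovered with P5CS against input RNA gene by gene. They are the genes of the deposited count table whose symbol is ZNF followed only by a number and whose counts summed to 600 or more over both input libraries. The table held 21372 genes, of which 451 had such a symbol, and the other 289 ZNF genes stayed under the minimum. The input counts therefore chose the group, and because they also enter the comparison with the immunoprecipitate, all counts of higher and lower ZNF genes below are a description and are read only beside the same counts for other genes.

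A C2H2 zinc finger is a short protein fold held by a zinc ion, and arrays of such fingers read DNA sequence or, in some proteins, bind RNA. Many ZNF proteins also carry a KRAB domain, which recruits the corepressor TRIM28 and with it the histone methyltransferase SETDB1, and these proteins are known for silencing transposable elements. Their genes arose by repeated duplication and lie in clusters, the densest of them on chromosome 19. A smaller number of ZNF proteins act outside transcription, in ribosome surveillance, splicing or mitosis.

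The cells were NCI-H1299, an established cell line from a human lung tumour that the labels call lung adenocarcinoma. Of the 4 libraries, 2 were RNA immunoprecipitates (RIP) with P5CS, the mitochondrial enzyme of proline synthesis encoded by ALDH18A1, and 2 were input RNA, with no treatment or genotype named for either group. The series title and the library protocol say RIP-seq, while the design text speaks of LACE-seq, a method that maps binding sites. The count columns also carry the word Cyto, which no label explains, so whether the input is whole-cell RNA is not known here. The series title concerns P5CS as an RNA-binding protein in translation, and the design text names an anti-IgG control that was not analysed here, so RNA held by P5CS and RNA held by the beads or antibody cannot be told apart. Whether both libraries of a group were made from different cultures is not stated in the labels, and the p-values therefore reflect library-to-library spread alone, possibly technical. The libraries held 34730866 and 31489455 counts in P5CS IP 1 and 2, against 40911717 and 46339235 in input 1 and 2. The epithelial keratin gene KRT18 had 10316 and 9176 counts in the P5CS IP and 19299 and 22354 in the input, while the lung lineage factor gene NKX2-1 had 20 and 52 counts in the P5CS IP and 8 and 0 in the input. ALDH18A1 itself stood at a log2 fold change of -0.19 (SE 0.0961) and was not called. Scaling by total counts, in place of the TMM factors used otherwise, put it at 0.07, and without P5CS IP 2 it was called lower (-0.26).

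RNA of the ZNF genes made up a larger share of the P5CS IP than of the input. The 162 genes took 0.948% and 0.972% of all counts in P5CS IP 1 and 2, against 0.383% and 0.378% in input 1 and 2. Both IP libraries lay above both inputs. The values are shares of the RNA in each library and not amounts, so a share also depends on what else the library holds. Per kilobase, the median ZNF gene had a deposited level of 7.05 and 6.98 FPKM in the P5CS IP against 3.28 and 3.14 FPKM in the input. The median over all genes with the same input minimum was also higher in the P5CS IP, at 9.24 and 9.01 FPKM against 7.58 and 7.44 FPKM.

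Of the 162 genes, 100 were higher in the P5CS IP, 18 were lower and 44 were not called. A call needs an adjusted p under 0.05 by edgeR's quasi-likelihood test, with the Benjamini-Hochberg method over all 17304 genes tested. All 162 passed the low-count filter. Among all tested genes, 25.4% were higher and 25.6% lower. Among the 9058 genes with the same input minimum, 33.4% were higher and 39.7% lower. The ZNF shares were 61.7% higher and 11.1% lower. The median log2 fold change was 0.68 over the ZNF genes, with quartiles of -0.05 and 1.30, against -0.01 over all tested genes and -0.10 over genes with the same minimum. Of the genes called higher, 61 differed by at least 2-fold, 13 by at least 4-fold and 3 by at least 8-fold. Of those called lower, 6 differed by at least 2-fold. Of the 9058 genes with the same input minimum, 1384 were called higher by at least 2-fold, 224 by at least 4-fold and 22 by at least 8-fold. Of the same 9058 genes, 1714 were called lower by at least 2-fold. In CPM, the usual scaling of counts to a common library size and here on TMM-scaled sizes, both IP values lay above both input values for 110 ZNF genes (67.9%), where 37.7% of tested genes and 40.5% of genes with the same minimum did so. Both lay below for 30 ZNF genes (18.5%), against 38.2% and 47.9%. No test compared the group with other genes. In the authors' deposited table, 85 of the 162 genes (52.5%) carry the mark for enrichment, which 19% of all genes carry, and all 85 were called higher here.

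**Figure D1:**
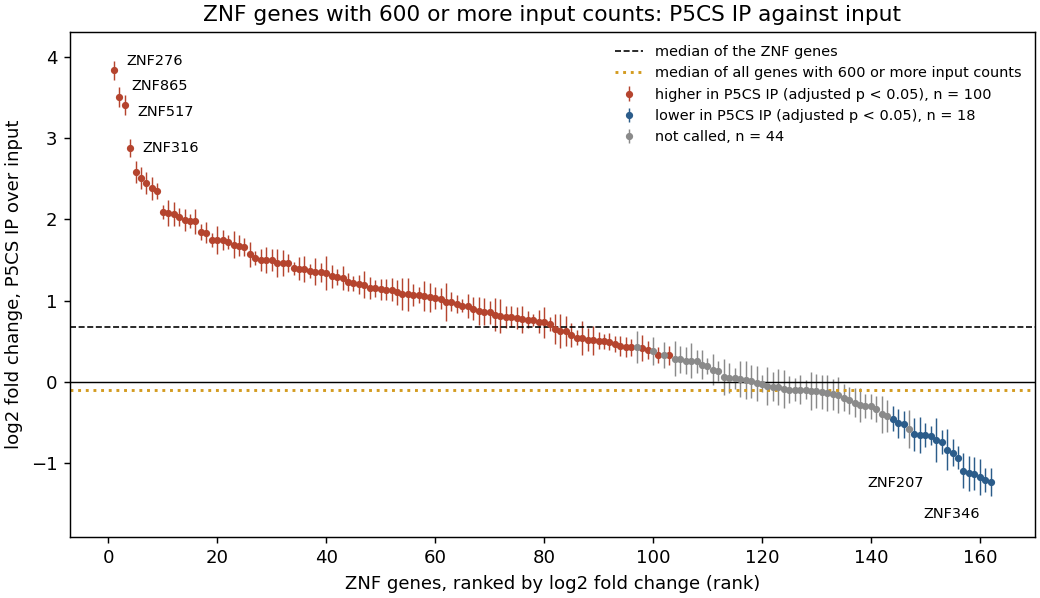
Log2 fold change of P5CS IP over input (y axis, points with SE bars, 2 libraries per group) for the 162 ZNF genes ranked from highest to lowest (x axis), coloured by call. The dashed line is their median (0.68) and the dotted line that of all genes with 600 or more input counts (-0.10), and the order runs from ZNF276 at 3.83 to ZNF346 at -1.23.

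The minimum itself set which genes were counted, so the genes at its edge are given without a test. Just inside it, ZNF700 (601 input counts), ZNF141 (605) and ZNF697 (606) had log2 fold changes of 0.82, -0.83 and 1.34. Just outside it, ZNF330 (596), ZNF383 (595) and ZNF436 (593) had -0.30 (SE 0.250), -0.68 (SE 0.292) and 0.95 (SE 0.232). Of the genes inside, ZNF700 and ZNF697 were called higher and ZNF141 lower, and of those outside, ZNF436 was called higher and the other two were not called. The call of ZNF141 as lower was lost without P5CS IP 2 (-0.69) and with total-count scaling (-0.56). Choosing instead the 180 ZNF genes with 600 or more counts over both IP libraries gave 133 higher and 11 lower. Such a choice favours the other direction, and the share of all genes chosen alike was not taken.

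ZNF276 (Gene ID 92822, chromosome 16, 89720368 to 89740925, GRCh38) stood highest. It had 292 and 352 CPM in P5CS IP 1 and 2, against 23.5 and 21.7 CPM in input 1 and 2, a 14.2-fold difference (log2 fold change 3.83, SE 0.114, adjusted p = 3.46e-09 by the edgeR test). Both IP values were more than 10 times every input value. Its span overlaps, head to head, that of VPS9D1 by 531 bases and, tail to tail, that of FANCA, a Fanconi anaemia DNA repair gene, by 3377 bases, both on the opposite strand. Reads in the overlaps can be assigned to either gene unless strand is used, and the sources used here do not state whether it was. VPS9D1 stood at 2.47 (SE 0.141) and FANCA at 0.71 (SE 0.0931), both called higher and both below ZNF276. The part of shared reads in the value of ZNF276 was not tested.

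ZNF865 (Gene ID 100507290, chromosome 19, 55605647 to 55617269) overlapped no other RefSeq gene. It had 183 and 221 CPM in the P5CS IP, against 18.9 and 16.8 CPM in the input (log2 fold change 3.50, SE 0.122). ZNF517 (Gene ID 340385, chromosome 8, 144798913 to 144813513) had 165 and 189 CPM in the P5CS IP, against 15.3 and 18.0 CPM in the input (3.41, SE 0.121). The span of ZNF517 overlaps that of LOC100130027 by 4704 bases, and the part of shared reads in its value was not tested. By mean FPKM, ZNF276 ranked 2 of 162 in the P5CS IP and 68 in the input, and ZNF865 ranked 3 in the P5CS IP and 63 in the input. ZNF768 ranked first in the P5CS IP, at 95.8 and 92.5 FPKM, against 23.4 and 24.0 FPKM in the input.

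The next genes in the order also had groups that did not overlap. ZNF316 (chromosome 7, 6637318 to 6658279) had 297 and 357 CPM in the P5CS IP, against 45.2 and 43.7 CPM in the input (2.88, SE 0.106). ZNF324 had 53.8 and 53.9 CPM against 9.68 and 8.36 CPM (2.58, SE 0.136), and ZNF786 had 60.9 and 61.5 CPM against 9.63 and 11.9 CPM (2.51, SE 0.137), IP before input in both. ZNF516, whose protein is a partner of the CtBP and LSD1 corepressors, had 92.7 and 113.6 CPM in the P5CS IP, against 20.7 and 17.3 CPM in the input (2.44, SE 0.135). ZNF263, a DNA-binding protein with SCAN and KRAB domains, had 43.5 and 44.4 CPM in the P5CS IP, against 8.83 and 8.02 CPM in the input (2.38, SE 0.139). The calls of these 8 highest genes held under every setting tried.

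The lowest genes differed by less than the highest ones. ZNF346, which encodes a protein that binds double-stranded RNA (chromosome 5, 177022696 to 177081189), had 9.75 and 9.90 CPM in the P5CS IP, against 25.1 and 21.0 CPM in the input (log2 fold change -1.23, SE 0.168, adjusted p = 0.000108 by the edgeR test). ZNF207, also known as BuGZ, which binds the checkpoint protein BUB3 and microtubules (chromosome 17, 32350157 to 32381885), had 32.1 and 23.8 CPM in the P5CS IP, against 68.2 and 60.7 CPM in the input (-1.20, SE 0.146). Both genes were lower in each IP library than in either input. ZNF566 (-1.16, SE 0.219), ZNF358 (-1.12, SE 0.203), ZNF414 (-1.12, SE 0.215), ZNF226 (-1.09, SE 0.215), ZNF428 (-0.93, SE 0.143) and ZNF706 (-0.87, SE 0.162) completed the 8 lowest. Their calls also held under every setting tried. ZNF428 had the shortest gene model of the group (1162 nt). It had 18.0 and 16.01 FPKM in the P5CS IP, against 29.4 and 24.5 FPKM in the input, where its mean ranked first per kilobase.

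**Figure D2:**
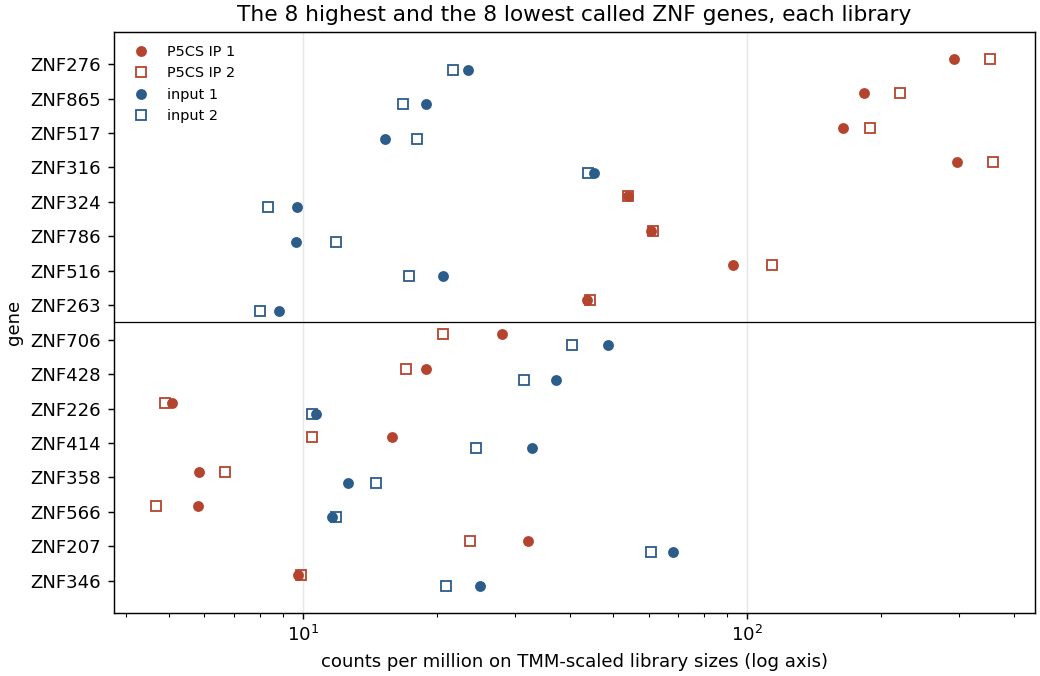
CPM on TMM-scaled library sizes (x axis, log scale) in each of the 4 libraries for the 8 highest and the 8 lowest called ZNF genes (y axis). In each of the 16 genes the P5CS IP points and the input points do not overlap, with a gap of over 10-fold for ZNF276 (292 and 352 against 23.5 and 21.7).

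Promoter sequence was the only sequence examined. RefSeq windows of GRCh38.p14, 250 bases before to 50 after each gene's start, matched 143 of the 162 genes. Their median GC content was 64.3%, against 66.3% over the 7309 windows of genes with the same input minimum. The log2 fold change had a Spearman correlation of 0.278 with promoter GC across the 143 ZNF genes and of 0.2 across the 7309 genes, which share libraries and depth and are not independent. The 250 bases upstream of the start are shown for 2 of the highest and 2 of the lowest called genes, none of whose windows overlaps a RefSeq gene, as examples of promoters at both ends of the order. They do not stand for all such genes: of the 300-base windows, the one with the least GC belonged to ZNF532 (43.7%), which was called higher, and ZNF358, among the 8 lowest, had 76.3% GC, while ZNF263, among the 8 highest, had 60.3%. They are given 5′ to 3′ on the gene's strand with CpG pairs in capitals.
ZNF865 (chr19:55605397-55605646, plus strand): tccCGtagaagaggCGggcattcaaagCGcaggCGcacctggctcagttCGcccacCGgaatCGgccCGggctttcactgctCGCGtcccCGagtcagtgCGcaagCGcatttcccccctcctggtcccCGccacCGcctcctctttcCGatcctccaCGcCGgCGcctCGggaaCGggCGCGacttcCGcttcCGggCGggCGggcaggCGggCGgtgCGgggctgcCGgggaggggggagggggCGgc
ZNF316 (chr7:6637068-6637317, plus strand): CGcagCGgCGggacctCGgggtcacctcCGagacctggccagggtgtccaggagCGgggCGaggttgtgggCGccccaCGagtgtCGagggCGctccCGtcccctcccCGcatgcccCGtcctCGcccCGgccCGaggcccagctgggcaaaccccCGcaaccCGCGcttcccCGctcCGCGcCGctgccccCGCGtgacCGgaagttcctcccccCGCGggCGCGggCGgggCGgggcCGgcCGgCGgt
ZNF226 (chr19:44164850-44165099, plus strand): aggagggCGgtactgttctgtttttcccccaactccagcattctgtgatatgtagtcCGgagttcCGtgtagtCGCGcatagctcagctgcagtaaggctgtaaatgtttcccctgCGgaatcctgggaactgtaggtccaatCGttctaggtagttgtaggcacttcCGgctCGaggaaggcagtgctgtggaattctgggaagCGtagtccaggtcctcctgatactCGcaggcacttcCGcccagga
ZNF414 (chr19:8514168-8514417, minus strand): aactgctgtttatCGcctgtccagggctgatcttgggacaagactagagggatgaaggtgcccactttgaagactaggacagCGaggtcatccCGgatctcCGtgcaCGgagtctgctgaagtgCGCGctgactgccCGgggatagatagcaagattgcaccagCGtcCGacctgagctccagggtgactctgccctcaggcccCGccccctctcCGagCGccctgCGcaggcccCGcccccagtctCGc

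The windows of ZNF865 and ZNF316 held 32 and 36 CpG pairs and 73.6% and 80% GC, and those of ZNF226 and ZNF414 held 12 and 16 pairs and 54.4% and 63.2% GC. The GC box, GGGCGG on either strand, occurred in 97 of the 143 ZNF windows (67.8%), in 73.5% of windows of genes with the same input minimum and in 44.6% of all 27305 windows. These letters describe the windows and show no bound factor.

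Among the ZNF genes as a whole, the log2 fold change went little with gene model length. The lengths, recovered from the quotient of deposited counts and FPKM, ran from 1162 to 18323 nt with a median of 5216 nt, against 4083.5 nt over the 9058 genes with the same input minimum. Across those 9058 genes, the log2 fold change had a Spearman correlation with length of 0.446, and across the 162 ZNF genes one of 0.0657, in each case across genes of the same libraries. Without the 86 ZNF genes whose span overlaps another RefSeq gene it was -0.0372. The difference between the correlations was not tested.

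The gap between the median of the ZNF genes and that of other genes was widest in the shortest band. Below 3000 nt, 12 of 27 ZNF genes were higher (44.4%) and 5 lower (18.5%), against 14.3% higher and 63.2% lower among 3043 other genes with the same input minimum. The medians were 0.33 for these ZNF genes and -0.73 for the other genes. Within this band length did go with the log2 fold change in both, with a Spearman correlation of 0.478 over the 27 ZNF genes and of 0.438 over the other genes.

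In the longer bands the medians lay closer together. From 3000 to under 5000 nt, 32 of 44 ZNF genes were higher and 1 lower, beside 33.8% and 35.4% of other genes, with medians of 0.76 and -0.02. From 5000 to under 8000 nt, 33 of 55 were higher and 9 lower, beside 44.9% and 25.9%, with medians of 0.63 and 0.22. At 8000 nt and above, 23 of 36 were higher and 3 lower, beside 56.6% and 18% of other genes, with medians of 0.90 and 0.46. The longest gene model, that of ZNF445 (18323 nt), belonged to a gene that was higher (1.68, SE 0.126). With the length trend of all genes removed, 94 ZNF genes were higher and 24 lower, beside 29.5% and 40.7% of genes with the same minimum. With total-count scaling 109 were higher and 10 lower, beside 42.4% and 29.5%.

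**Figure D3:**
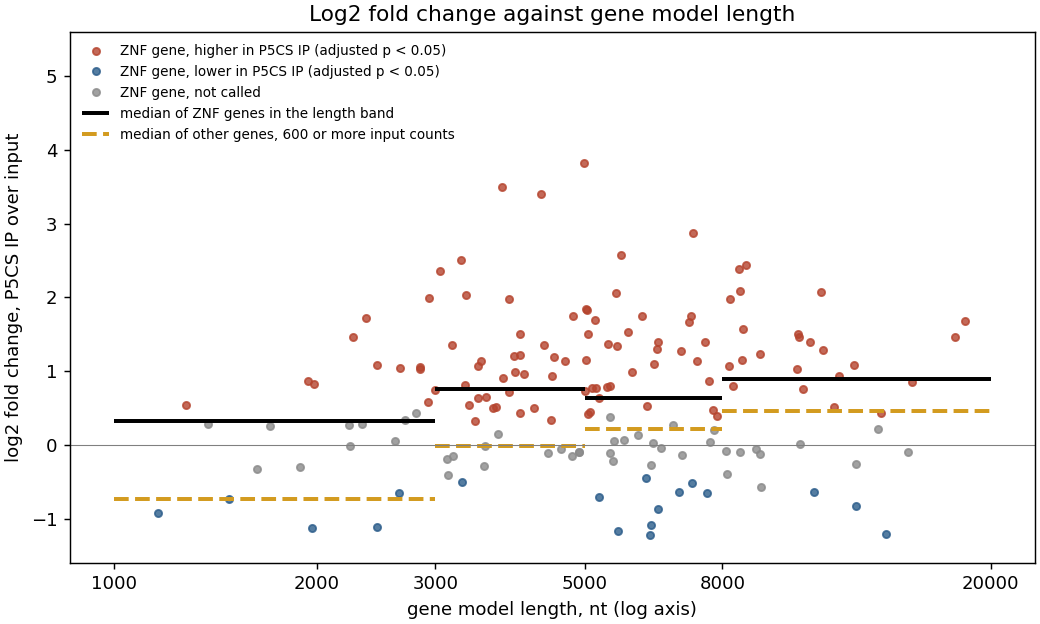
Log2 fold change of P5CS IP over input (y axis) against gene model length in nt (x axis, log scale) for the 162 ZNF genes, coloured by call, with the median of the ZNF genes (solid) and of other genes with 600 or more input counts (dashed) in 4 length bands. The solid line runs from 0.33 in the shortest band to 0.90 in the longest and the dashed line from -0.73 to 0.46.

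ZNF genes of chromosome 16 had a higher median than those elsewhere. Chromosome 19 held 59 of the 162 genes, chromosome 16 held 17, chromosome 7 held 15 and chromosome 8 held 9, and the split by chromosome was chosen after the values were seen. On chromosome 16, 14 of 17 ZNF genes were higher and 0 lower, beside 38.4% and 34.9% of 404 other genes there with the same input minimum. Their median was 1.72, against 0.54 over the 145 ZNF genes elsewhere and 0.03 over the other genes of the chromosome. On chromosome 19, 30 of 59 were higher and 10 lower, beside 33.8% and 40.1% of 551 other genes, and the median was 0.33, against 0.90 over the ZNF genes of other chromosomes.

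Along the short arm of chromosome 16, neighbours did not all move alike. ZNF646 (2.09, SE 0.0899) and ZNF668 (1.97, SE 0.152) overlap by 1554 bases on opposite strands and share a region of their 5′ ends, so their reads may be split between them. ZNF48 (2.03, SE 0.107), ZNF768 (1.72, SE 0.0849) and ZNF629 (1.75, SE 0.0885) were also higher. Between them, ZNF771 had 25.3 and 28.5 CPM in the P5CS IP, against 25.5 and 26.6 CPM in the input (0.05, SE 0.133), and ZNF689 had 46.4 and 45.9 CPM against 45.8 and 47.6 CPM (-0.02, SE 0.104), IP before input. The groups of both genes overlapped. ZNF205, nearer the start of the chromosome, was not called (0.28, SE 0.168) but was called higher after total-count scaling (0.55) or removal of the length trend (0.45).

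On chromosome 19, some adjacent ZNF genes had very different log2 fold changes. ZNF865 (3.50) lies 2508 bases beyond ZNF524, which had 9.46 and 11.2 CPM in the P5CS IP, against 7.34 and 9.55 CPM in the input (0.29, SE 0.219). ZNF524 was not called except with the length trend removed (0.76). ZNF865 lies 17733 bases before ZNF581, which had 15.5 and 17.0 CPM in the P5CS IP, against 28.3 and 25.7 CPM in the input (-0.74, SE 0.146). The span of ZNF581 overlaps that of ZNF580 by 2469 bases and that of LOC107983998 by 5797 bases, both on the same strand. The part of shared reads in the value of ZNF581 was not tested. ZNF426 (1.39) and ZNF121 (-0.52, SE 0.162) lie 21683 bases apart. All these pairs are neighbours in the order of the 59 genes, and other genes between them were not looked for. The other 2 pairs lie farther apart: ZNF414 (-1.12) and ZNF558 (1.75) by 292002 bases, and ZNF296 (-0.33, SE 0.156, not called) and ZNF347 (1.57) by 8058456 bases. These 5 pairs were picked by a rule for their difference, so the differences are a description. The call of ZNF121 was lost without P5CS IP 1 (-0.36) or input 2 (-0.48) and with total-count scaling (-0.25), and that of ZNF581 with the length trend removed (-0.30). On chromosome 8, ZNF517 (3.41) lies 14046 bases from ZNF7 (0.38, SE 0.170), a gene that was not called except without P5CS IP 2 (0.55) or with total-count scaling (0.65). The span of ZNF7 overlaps by 9531 bases that of COMMD5, which stood at 0.24 and was not called. The part of shared reads in the value of ZNF7 was not tested. ZNF paralogues in clusters have similar sequences, and single values are uncertain where reads could be divided between copies.

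**Figure D4:**
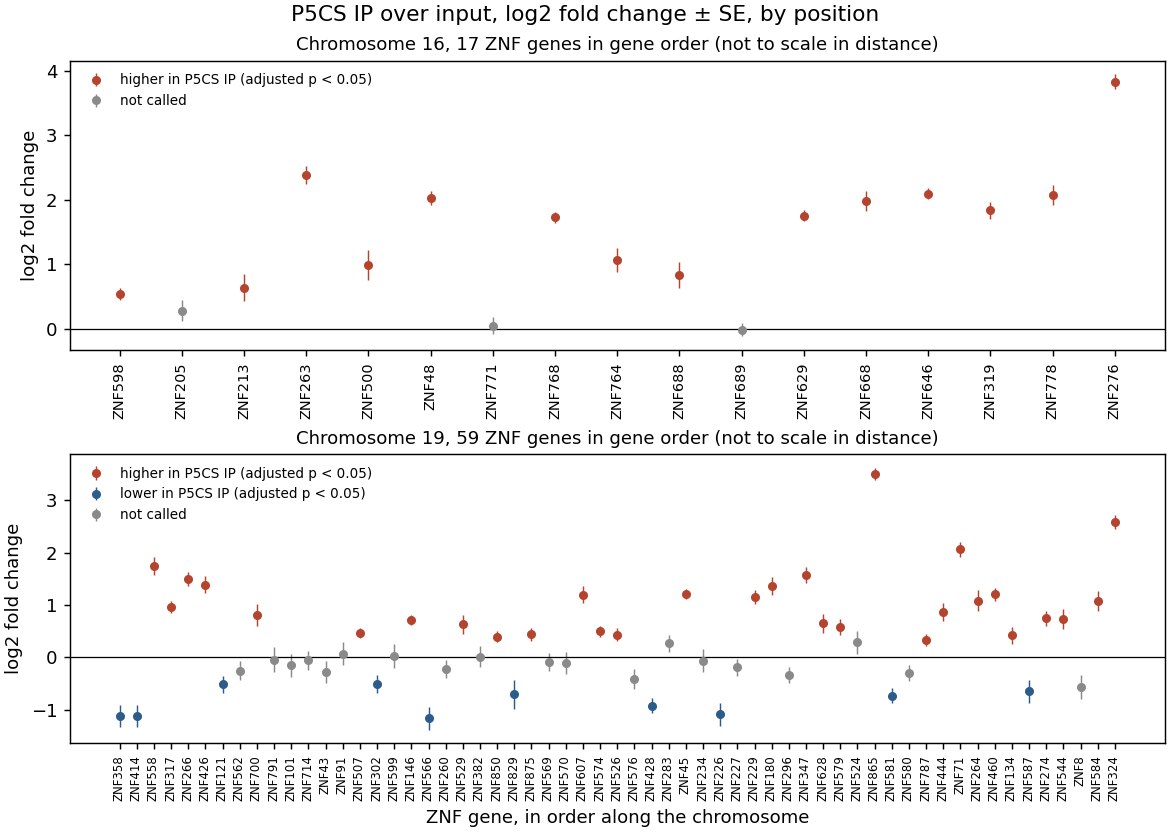
Log2 fold change of P5CS IP over input with SE bars (y axis, 2 libraries per group) for the 17 ZNF genes of chromosome 16 (upper panel) and the 59 of chromosome 19 (lower panel), in gene order (x axis, not to scale), coloured by call. On chromosome 16 the values run from -0.02 to 3.83 with no gene called lower, and on chromosome 19 from -1.16 to 3.50 with both calls among neighbours.

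The ZNF genes were also read by the known role of their proteins, in 4 lists whose counts stand beside 33.4% higher and 39.7% lower among all genes with the same input minimum and 61.7% and 11.1% in the whole ZNF group. The lists were chosen with earlier results of these data known, and no test compared them with each other or with other genes. Median gene model lengths were 7768 nt for corepressor partners, 7009.5 nt for RNA-acting proteins, 6171 nt for KRAB repressors and 4675.5 nt for promoter factors. Over all genes with the same minimum the median was 4083.5 nt. Of other genes from 5000 to under 8000 nt 44.9% were higher and 25.9% lower, and at 8000 nt and above 56.6% and 18%. Of 16 listed partners of corepressors and chromatin complexes 12 were well measured, and 10 were higher (83.3%), 0 lower and 2 not called, with a median of 1.10. ZNF217, an oncogene amplified in breast cancer whose protein joins CtBP and LSD1, had 277 and 293 CPM in the P5CS IP, against 95.6 and 102.5 CPM in the input (1.53, SE 0.0839). Each IP value was above both inputs. ZNF687 (1.75, SE 0.118), ZNF532 (1.14, SE 0.125) and ZNF592 (1.07, SE 0.0981), whose proteins join the chromatin reader ZMYND8, were all higher, as was ZNF827 (1.504, SE 0.162), which recruits the NuRD remodeller to telomeres. ZNF608 (1.30), ZNF219 (1.07), ZNF609 (0.94) and ZNF462 (0.76) were also higher. The span of ZNF687 overlaps those of PI4KB (1.65, called higher) by 380 bases and ZNF687-AS1 (-0.94, not called) by 408. That of ZNF219 overlaps ARHGEF40 (2.26, called higher) by 172 bases, and that of ZNF516 overlaps ZNF516-AS1 (2.02, called higher) by 2267. The part of shared reads in the values of ZNF687, ZNF219 and ZNF516 was not tested. ZNF644, which guides the histone methyltransferases G9a and GLP, had 33.8 and 39.5 CPM in the P5CS IP, against 33.3 and 33.4 CPM in the input (0.14, SE 0.124), was called higher with total-count scaling (0.40), and stood at -0.11 with the length trend removed. ZNF451, a SUMO ligase, stood at -0.09 (SE 0.116), turned to 0.17 with total-count scaling and was called lower with the length trend removed (-0.65).

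Of 13 listed KRAB repressors with described targets 9 were well measured, and 6 were higher (66.7%), 0 lower and 3 not called, with a median of 0.52. These shares lie near those of the whole ZNF group, 61.7% higher and 11.1% lower, and the median is below its 0.68. ZNF445, which helps to keep parental imprints, had 66.3 and 62.1 CPM in the P5CS IP, against 21.9 and 18.2 CPM in the input (1.68, SE 0.126). ZNF777 stood at 1.35 (SE 0.117), ZNF746, also called PARIS, a repressor of the gene for PGC-1alpha, at 0.80 (SE 0.130) and ZNF274, which binds the 3′ ends of ZNF genes and recruits SETDB1, at 0.74 (SE 0.140). ZNF398 (0.52) and ZNF282 (0.50) were higher as well, the first of them not with the length trend removed (0.27). ZNF91, a repressor of SVA retrotransposons, had 8.73 and 7.40 CPM in the P5CS IP, against 7.29 and 8.12 CPM in the input (0.07, SE 0.220), and its groups overlapped. ZNF268 (0.22, SE 0.179) and ZNF382 (0.01, SE 0.204) were not called, though ZNF268 was called higher with total-count scaling (0.48). The sign of ZNF91, ZNF268 and ZNF382 turned with the length trend removed.

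Of 10 listed genes whose proteins act on RNA 8 were well measured, with 2 higher (25%), 3 lower (37.5%), 3 not called and a median of 0.09. These shares lie near those of all genes with the same input minimum, 33.4% higher and 39.7% lower. ZNF106, an RNA-binding splicing regulator, had 342 and 359 CPM in the P5CS IP, against 132 and 134 CPM in the input (1.40, SE 0.0784). ZNF598, the ubiquitin ligase that marks collided ribosomes, had 135 and 153 CPM in the P5CS IP, against 101 and 96.3 CPM in the input (0.54, SE 0.0931). The IP values of both genes lay above their inputs. ZNF346 and ZNF207 were lower, as above, and ZNF326, a subunit of the DBIRD complex that links RNA polymerase II to splicing, stood at -0.64 (SE 0.202). The call of ZNF326 was lost without P5CS IP 1 (-0.53) or input 2 (-0.60), with DESeq2 (-0.62) and with total-count scaling (-0.38). ZNF622, a maturation factor of the large ribosomal subunit, was not called (0.26, SE 0.142) but was called higher without P5CS IP 1 (0.40), after total-count scaling (0.52) and after the length trend was removed (0.62). The splicing-related genes ZNF638 (0.20, SE 0.0985) and ZNF830 (-0.02, SE 0.218) were not called, ZNF638 being called higher with total-count scaling (0.47) and its sign turning with the length trend removed (-0.14).

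Of 11 listed sequence-specific promoter factors 8 were well measured, with 4 higher (50%), 2 lower (25%), 2 not called and a median of 0.12. Of all genes with the same input minimum 33.4% were higher and 39.7% lower, and of the whole ZNF group 61.7% and 11.1%. ZNF263 (2.38), ZNF148 (1.02, SE 0.126), ZNF131 (0.90, SE 0.142) and ZNF335 (0.33, SE 0.0926) were higher. ZNF148 and ZNF281 encode related factors that bind GC-rich promoters, and ZNF281 had 21.0 and 20.9 CPM in the P5CS IP, against 23.8 and 20.8 CPM in the input (-0.09, SE 0.145), a value that total-count scaling moved to 0.17. ZNF76, a relative of the promoter factor ZNF143, had 28.9 and 28.0 CPM in the P5CS IP, against 45.7 and 44.2 CPM in the input (-0.66, SE 0.113), and ZNF24 stood at -0.65 (SE 0.148). The call of ZNF24 was lost with total-count scaling (-0.38), and that of ZNF335 without input 1 (0.29) and with the length trend removed (0.21). ZNF384 was not called (-0.29, SE 0.149) but was called lower without P5CS IP 1 (-0.53).

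**Figure D5:**
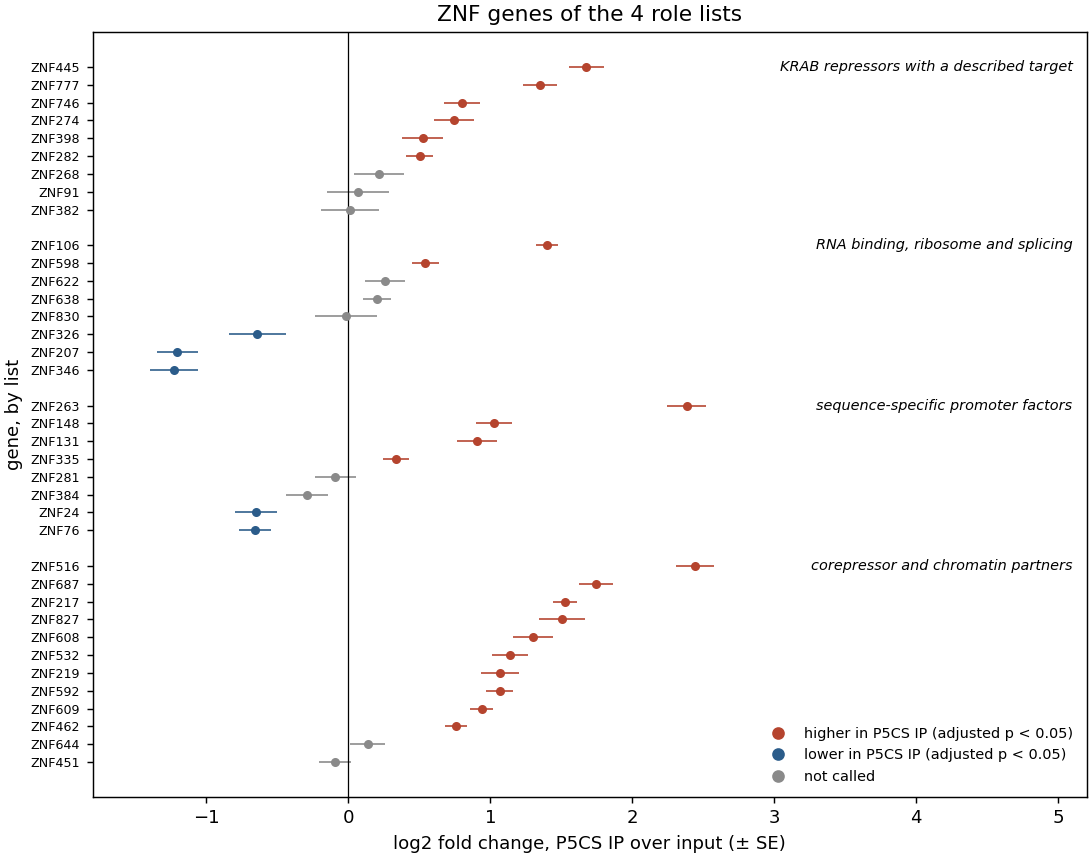
Log2 fold change of P5CS IP over input with SE bars (x axis, 2 libraries per group) for the well-measured ZNF genes of the 4 role lists (y axis, grouped by list), coloured by call. Values run from ZNF346 at -1.23 to ZNF516 at 2.44. Genes called lower number 3 of 8 for RNA-acting proteins, 2 of 8 for promoter factors, 0 of 12 for corepressor partners and 0 of 9 for KRAB repressors. Of the whole ZNF group 11.1% were called lower, and of all genes with the same input minimum 39.7%. The lists were not tested against each other.

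Of 13 listed cofactors that KRAB proteins work through, all tested, 6 were higher (46.2%), 4 lower (30.8%) and 3 not called, with a median of 0.30. Of all genes with the input minimum, 33.4% were higher and 39.7% lower. TRIM28, the corepressor that the KRAB domain binds, had 577 and 661 CPM in the P5CS IP, against 403 and 426 CPM in the input (0.58, SE 0.0841). MORC2 (1.51, SE 0.128), CHD3 of the NuRD complex (1.08, SE 0.0819) and TASOR of the HUSH complex (0.91, SE 0.107) were higher, as were SETDB1 (0.53, SE 0.151) and the DNA methyltransferase gene DNMT1 (0.31, SE 0.0724). All 3 genes for HP1 proteins, which bind methylated histone H3, were lower: CBX5 had 143 and 140 CPM in the P5CS IP, against 270 and 253 CPM in the input (-0.88, SE 0.0803), CBX3 stood at -0.79 (SE 0.123) and CBX1 at -0.75 (SE 0.102). PPHLN1, another HUSH subunit, was lower too (-1.22, SE 0.140), and MPHOSPH8, also of HUSH, was not called (-0.28, SE 0.190). CHD4 (0.30) and ATF7IP (-0.15) were not called either, but total-count scaling put CHD4 at 0.56, called higher, and ATF7IP at 0.12. With the length trend removed ATF7IP was called lower (-0.63). The call of SETDB1 was lost without P5CS IP 1 (0.35) or input 1 (0.42) and with the length trend removed (0.39), and that of DNMT1 without input 1 (0.27) and with the length trend removed, where its sign turned (-0.02).

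Related zinc finger families with other names were counted in the same way. Of 8 ZSCAN and ZKSCAN genes with 600 or more input counts, whose proteins add a SCAN dimerisation domain to the fingers, 6 were higher and 0 lower (median 1.14). Of 9 ZFP genes with the same minimum, 6 were higher and 2 lower (median 0.46). Of all genes with this minimum, 33.4% were higher and 39.7% lower, and no test compared the families with them. These families were chosen after the values of the ZNF genes were seen.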

How the data were processed

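The members and gene lists were chosen with earlier results of these data known. RNA of 2 P5CS RIP and 2 input libraries of NCI-H1299 was sequenced; per the submitters' processing notes the build was hg38 and the tools included STAR 2.7.10a, fastp 0.23.2, DESeq2 and featureCounts, without settings. The authors deposited whole-number counts per gene, used as deposited, and FPKM values, which gave gene model lengths (libraries agreed to within 0.000104 of the median). Their own comparison, also deposited by the authors, holds a normalised mean (signal), a log2 fold change with its standard error, a test score and p-values, of which only the enrichment mark is reported. Columns were matched to samples through their replicate number and whether they say input; they also carry the unexplained word Cyto. About 86% of deposited counts from 1 to 30 were even (85.76 to 86.4%), which may mean that each mate was counted. A floor of 3 counts is 0.0647 to 0.0953 CPM, for counting error only.

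Of 21373 rows, 1 repeat was dropped. IDs were matched to RefSeq (GRCh38.p14), 18055 by ID and 1 by symbol, and all 162 ZNF genes matched. All 4 libraries were fitted with edgeR 4.0.16 under R 4.3.3 (TMM, filterByExpr, glmQLFit, glmQLFTest, no replicate term; 17304 genes, common biological coefficient of variation 0.201, 2 residual degrees of freedom). The fit was also run on simulated counts in which as many genes were raised as lowered. Such counts cannot show whether TMM scaling suits these libraries. SE is the log2 fold change over the square root of F. Alternatives were DESeq2 1.42.0, total-count scaling, no filter, a replicate block, each library left out, the length trend removed, and other minimums. Same-numbered libraries did not deviate together (correlation 0.000153). Named genes are the 8 highest and 8 lowest called, the 5 with most input counts, those of the 4 role lists, of the cofactor list, at the edge of the minimum and at the ends of the length range, and the 5 pairs next in order among the ZNF genes of chromosome 19 that differed most. ZNF7, ZNF48, ZNF205, ZNF629, ZNF646, ZNF668, ZNF689, ZNF768 and ZNF771, and VPS9D1 and FANCA, were named after their values were seen. Finger numbers and KRAB domains were not counted, since no protein sequences were used here.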

Additional observations from a re-analysis of the deposited data

How the results depend on the processing

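Counts of higher and lower ZNF genes were 98 and 13 with DESeq2, 98 and 18 without the low-count filter, and 98 and 19 with the replicate block. Under the block, which joins same-numbered libraries, ZNF384 was called lower (-0.31). The shares of all genes called under these settings were not taken, so these counts do not show how far the ZNF genes differ from other genes. The median of genes with the same minimum was -0.08 with DESeq2, -0.10 without the filter and -0.10 with the block. With each library left out in turn, the median of the ZNF genes ran from 0.64 to 0.72. That of genes with the same minimum ran from -0.11 to -0.06. The correlation with length over the ZNF genes ran from 0.0534 to 0.072. In these fits 1 group was held by a single library that is assumed to vary like the other group. Total-count scaling moved the median of all tested genes to 0.25 and of the ZNF genes to 0.95, with 109 higher and 10 lower, and of the 100 and 18 genes called with TMM 100 and 10 were still called. Removing the length trend gave a median of 0.56, and 90 and 17 of those genes were still called. An input minimum of 300 counts gave 130 higher, 26 lower, a median of 0.44 and a correlation with length of 0.0852, and one of 1200 gave 63, 11, 0.79 and 0.157 over 91 genes. Choosing by 600 IP counts gave 11 lower, 0.97 and 0.0974. Chosen after seeing the data, 1200 counts over all 4 libraries gave 122, 15, 0.87 and 0.0832, and the 76 genes that overlap no RefSeq gene gave 46, 9, 0.60 and -0.0372, with fewer genes counted. For these other choices of genes the shares over all genes chosen alike were not taken. Their counts therefore do not show how far the ZNF genes differ from other genes. Of 765 values of 85 named genes under 9 settings, 704 kept direction and call, 18 lost the call, 17 gained one and 26 changed sign. The sign changes with total-count scaling were ZNF281 (0.17), ZNF451 (0.17), ZNF830 (0.25), ZNF689 (0.25), ATF7IP (0.12) and ALDH18A1 (0.07). With the length trend removed they were ZNF268 (-0.31), ZNF296 (0.05), ZNF382 (-0.45), ZNF638 (-0.14), ZNF644 (-0.11), ZNF771 (-0.17), ZNF830 (0.18), ZNF91 (-0.16) and DNMT1 (-0.02), and with DESeq2 ZNF830 (0.00) and ZNF689 (0.00). With 1 library left out, genes near 0 changed sign: ZNF281 ran from -0.18 to 0.01, ZNF382 from -0.07 to 0.10, ZNF771 from -0.01 to 0.13, ZNF830 from -0.13 to 0.11, ZNF91 from -0.05 to 0.21, and ZNF689 reached 0.02. Except for DNMT1, genes that changed sign were not called in the first place, and the cause was not tested. With 2 libraries a group, the SE of genes near the minimum, about 0.2, limits what can be called.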
